A study of Mus musculus with 24 samples.

Results

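The 9 genes described here are known, in the adult mouse heart, for the atria or for the natriuretic peptides: Nppa, Nppb, Myl7, Myl4, Sln, Dkk3, Kcnj3, Bmp10 and Gja5. They were chosen by name, with earlier results of these data known. All probe sets that the array's probe-to-gene table assigns to them were taken. This gave 15 probe sets for 9 genes, of 34945 probe sets with a single gene and 18193 genes in all. The question was how these genes differed between mice with and without PPARα, and whether they moved together from pool to pool, as they would with the share of atrial tissue in a pool.

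The study compared Ppara knockout (KO) and wild-type (WT) mice of the SV129 strain. PPARα is a nuclear receptor that responds to fatty acids and drives genes of their oxidation. Livers and hearts were taken from adult animals, aged about 10 to 12 weeks, at zeitgeber time 14, and RNA was pooled from 4 animals for each array. The 24 arrays fall into 8 groups of 3 pools, of which 4 are heart groups: male KO (pools 4 to 6), male WT (pools 1 to 3), female KO (pools 10 to 12) and female WT (pools 7 to 9). The labels restrict the knockout to no tissue, and the pools hide the spread between single mice. Whether hearts were trimmed of atria or vessels was not stated in the sources used here.

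Atrial natriuretic peptide and B-type natriuretic peptide are hormones that heart muscle cells release when they are stretched, and they lower blood volume and blood pressure through the receptor guanylyl cyclase Npr1. In the adult mouse the first is made mainly in the atria, and both are raised in ventricles under load. Atrial muscle also uses its own myosin light chains, its own inhibitor of the calcium pump and its own channels, so their transcripts in whole-heart RNA come largely from a small part of the organ.

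Values are log2 intensities as the authors deposited them, so 1 unit is a 2-fold difference, and probe sets of different genes are not compared as levels. Each gene is shown by the brightest of its probe sets, judged by the mean of the 24 arrays. The median of all probe sets lay between 3.01 and 3.07 on the heart arrays. Ppara itself stood at 6.13, 5.38 and 5.45 in male KO hearts, against 7.07, 6.92 and 6.73 in male WT hearts. In female hearts it stood at 5.74, 5.28 and 5.66 in KO pools, against 7.06, 7.27 and 6.94 in WT pools. It fell in both sexes, by 1.25 in males (limma, adjusted p = 0.00131) and by 1.53 in females (adjusted p = 0.000196), with no overlap between the groups. Its probe set was not placed on the transcript, so whether it covers the deletion was not tested.

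A pair of heart pools stood apart from their labels. Male KO pool 4 had Xist at 6.62, where the other 5 male hearts lay between 2.80 and 3.12, and 11 of 17 skeletal muscle markers were highest there (mean log2 level of the list 4.69). Of 6 lung markers it was the highest pool in Scgb1a1 alone (5.98). Female KO pool 10 had the Y-linked transcript Eif2s3y at 3.34, where the other 5 female hearts lay between 1.96 and 2.497. Differences of the 9 genes are therefore also given without pool 4 in males and without pool 10 in females. Genes of the other lists, apart from Mybphl, are given with all pools.

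Averaged over the 12 heart pools, Nppa lay at the 99.88th percentile of all probe sets, Myl7 at the 99.65th, Myl4 at the 99.25th, Sln at the 98.69th, Nppb at the 97.57th and Dkk3 at the 91.94th. Kcnj3 lay at the 87.24th, Bmp10 at the 71.29th and Gja5 at the 44.56th, with a mean of 2.91 that is below the array median, so its values say little about its transcript. In liver the same probe sets lay between the 20.45th percentile, for Nppa, and the 58.51st, for Kcnj3. These ranks are a description, since the arrays of each tissue appear to have been normalized apart and probe sets bind with different strength.

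**Figure D1:**
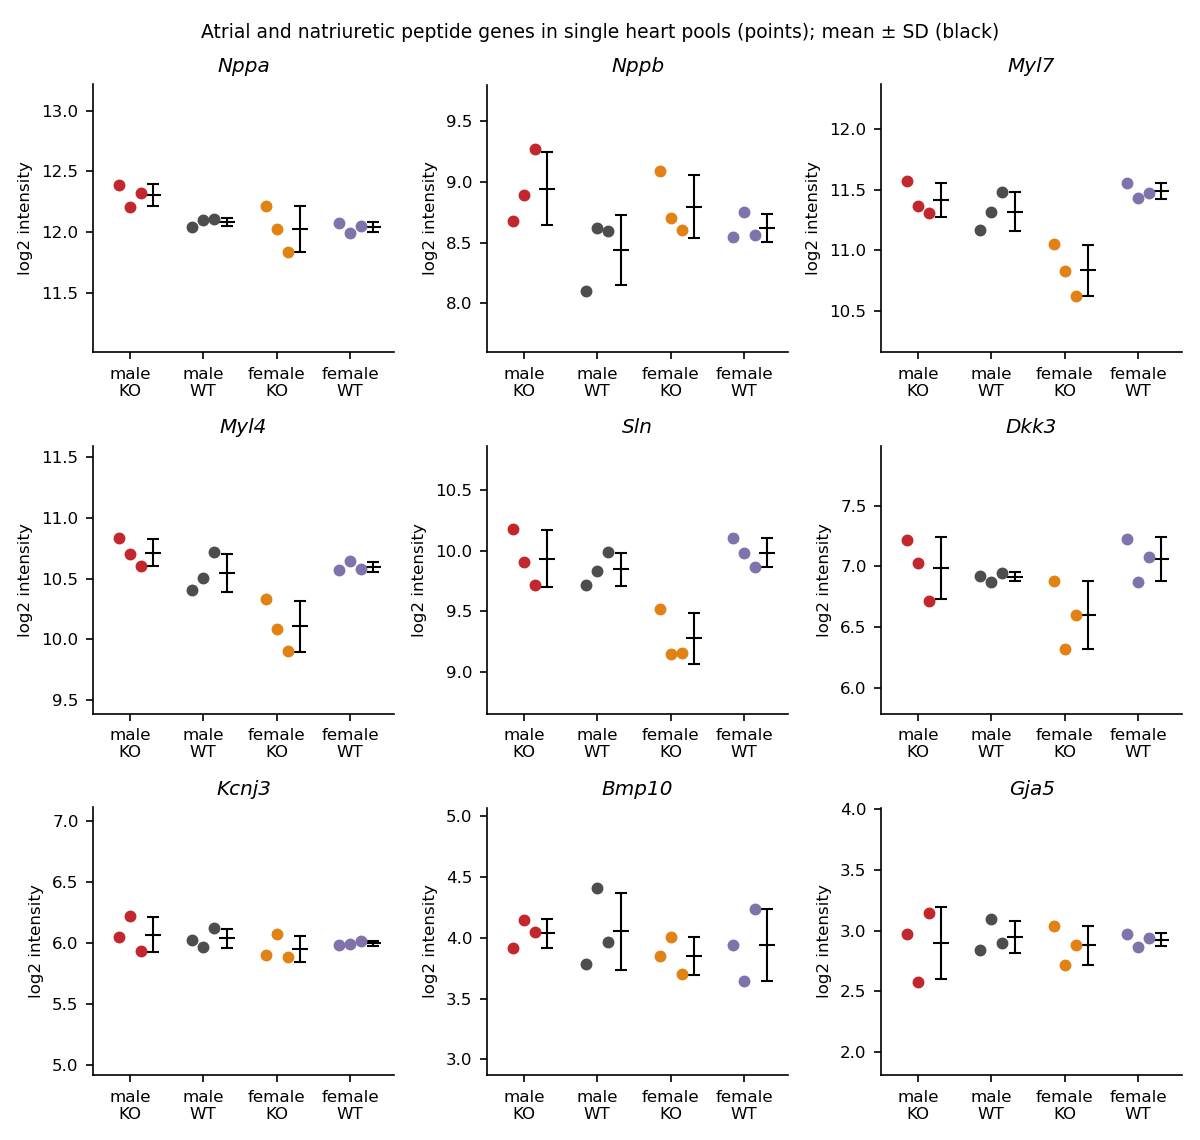
Log2 intensity (y axis) of each of the 9 genes in the single heart pools (points) of male KO, male WT, female KO and female WT mice, with the group mean ± SD in black (n = 3 pools). The y axes span the same number of log2 units around each gene's mean. Myl7, Myl4 and Sln are lower in every female KO pool than in every female WT pool, and Nppa and Nppb are higher in every male KO pool than in every male WT pool.

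In female hearts the atrial light chain Myl7 and the calcium-pump inhibitor Sln fell in KO mice, and the peptide genes did not pass the test. Myl4 was lower in every KO pool without passing the threshold, and Nppa, Nppb, Kcnj3, Bmp10 and Gja5 overlapped between the groups with differences no larger than 0.18. Of the 9 genes, 2 were called at an adjusted p under 0.05, both lower. Of all 18193 genes, 0.533% were called in this comparison, and 0.412% were called lower. The median difference of the 9 genes was -0.09, against -0.0053 over all genes.

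Myl7, the regulatory myosin light chain of the atria, stood at 11.05, 10.83 and 10.63 in female KO pools 10, 11 and 12, against 11.56, 11.43 and 11.47 in female WT pools 7, 8 and 9. The groups did not overlap. Myl7 fell by 0.65 (SE 0.11, 1.57-fold lower, limma adjusted p = 0.0126), and without pool 10 by 0.76 (adjusted p = 0.00659). This call was lost, with the direction kept, when pool 7, 11 or 12 was left out (adjusted p = 0.0889, 0.0545 and 0.0727). In pooled whole-heart RNA, fewer cells of a type and less RNA per cell cannot be told apart.

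Sln encodes sarcolipin, a small membrane protein that inhibits the calcium pump of the sarcoplasmic reticulum. It stood at 9.52, 9.15 and 9.16 in female KO pools, against 10.11, 9.98 and 9.86 in female WT pools, again with no overlap. Sln fell by 0.71 (SE 0.13, 1.63-fold lower, limma adjusted p = 0.0169) and without pool 10 by 0.83 (adjusted p = 0.0084). It missed the threshold when pool 7, 8, 11 or 12 was left out, with adjusted p between 0.0817 and 0.125. The second, dimmer Sln probe set, at 2.90 on average and so below the array median, differed by -0.33 in the same comparison (adjusted p = 0.427 over all probe sets).

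Myl4, the essential myosin light chain of the atria, stood at 10.33, 10.08 and 9.91 in female KO pools, against 10.57, 10.64 and 10.58 in female WT pools. All KO pools lay below all WT pools, and the difference of -0.49 (SE 0.11) missed the threshold (limma, adjusted p = 0.0757). It passed without pool 10, at -0.60 (adjusted p = 0.0289), so that 3 of the 9 genes were then called. With 1 pool left out in turn, between 61 and 82 of all 18193 genes were called in this comparison. Over all alternatives the adjusted p of Myl4 ran from 0.0136, in a fit of all 24 arrays, to 0.396. The second, dimmer Myl4 probe set differed by -0.14 (adjusted p = 0.882 over all probe sets), and the mean of both by -0.32 (adjusted p = 0.202). Myl7, Sln and Myl4 were the 3 genes whose female KO pools all lay below the WT pools, which held for 6.58% of all genes.

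Dkk3, a secreted protein of the dickkopf family, stood at 6.88, 6.32 and 6.60 in female KO pools, against 7.23, 6.87 and 7.08 in female WT pools. One KO pool, number 10, lay just above the lowest WT pool. The difference of -0.46 (SE 0.14) did not pass the test (limma, adjusted p = 0.36), nor did the -0.60 without pool 10 (adjusted p = 0.145), and its second probe set differed by -0.51 (adjusted p = 0.522 over all probe sets).

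Nppa, the gene of atrial natriuretic peptide, did not follow the light chains down. It stood at 12.21, 12.03 and 11.84 in female KO pools, against 12.08, 11.99 and 12.05 in female WT pools. The KO pools lay on both sides of the WT pools, and the difference was -0.02, with a 95% confidence interval from -0.22 to 0.19 that does not reach the difference of Myl7. Without pool 10 it was -0.11.

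Nppb, the gene of B-type natriuretic peptide, stood at 9.09, 8.70 and 8.60 in female KO pools, against 8.55, 8.75 and 8.56 in female WT pools. The groups overlapped, and the difference of 0.18 had an interval from -0.18 to 0.53. Without pool 10 it was 0.03.

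The remaining 3 genes are parts of atrial signalling and conduction. Kcnj3, a subunit of the potassium channel that acetylcholine opens to slow the heartbeat, stood at 5.90, 6.08 and 5.88 in female KO pools, against 5.98, 5.99 and 6.02 in female WT pools. Its difference of -0.04 had an interval from -0.24 to 0.15, and its other 3 probe sets differed by between -0.02 and 0.05. Bmp10, a secreted ligand of the TGF-beta family made in the atria, averaged 3.85 ± 0.15 in female KO pools and 3.94 ± 0.30 in female WT pools (SD, n = 3 each). Gja5, the gap junction protein connexin 40 of atrial muscle and the conduction system, averaged 2.88 ± 0.16 in female KO pools and 2.93 ± 0.05 in female WT pools, below the array median. The interval of Bmp10 ran from -0.43 to 0.24, so that a fall of that size could have been missed. Without pool 10 the differences of Kcnj3, Bmp10 and Gja5 were -0.02, -0.09 and -0.12.

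**Figure D2:**
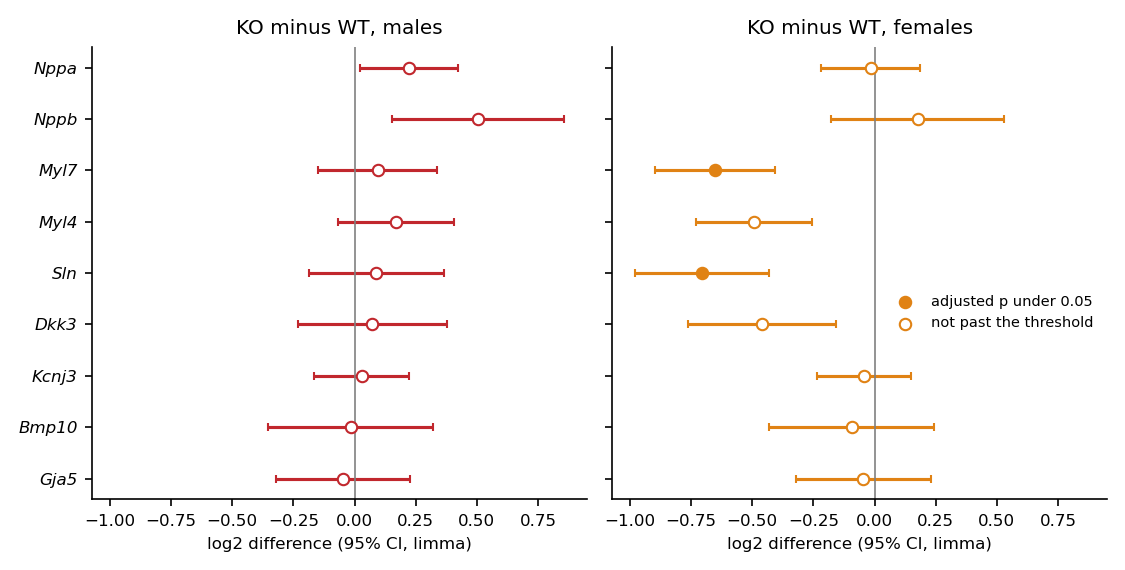
Log2 difference of KO minus WT (x axis) of the 9 genes in male hearts (left) and female hearts (right), with 95% confidence intervals from limma; filled points passed an adjusted p of 0.05 over all genes. In females the differences run from -0.71 for Sln to 0.18 for Nppb, and in males from -0.05 for Gja5 to 0.51 for Nppb, with no filled point in males.

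In male hearts the peptide genes were higher in every KO pool without passing the test, and the light chains overlapped between the groups. Of the 9 genes, 0 were called by limma, where 0.401% of all genes were. An unadjusted p under 0.05 was reached by 2 of the 9, Nppa and Nppb, and by 1197 of all 18193 genes. The same 2 had every KO pool above every WT pool, as 5.91% of all genes did. The median difference of the 9 genes was 0.09, against 0.0038 over all genes.

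Nppb stood at 8.68, 8.89 and 9.27 in male KO pools 4, 5 and 6, against 8.10, 8.62 and 8.59 in male WT pools 1, 2 and 3. The groups did not overlap, though pool 4 lay only just above pool 2. The difference was 0.51 (SE 0.17, limma adjusted p = 0.457), and it was 0.64 without pool 4. With 1 pool left out in turn it lay between 0.34 and 0.64. Nppa stood at 12.39, 12.21 and 12.32 in male KO pools, against 12.04, 12.10 and 12.11 in male WT pools. Its groups did not overlap either, and the difference was 0.22 (SE 0.09, limma adjusted p = 0.707), or 0.18 without pool 4.

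Myl7 stood at 11.57, 11.36 and 11.31 in male KO pools, against 11.17, 11.31 and 11.48 in male WT pools, a difference of 0.09 (interval from -0.15 to 0.34). Myl4 stood at 10.83, 10.70 and 10.61 in male KO pools, against 10.41, 10.51 and 10.72 in male WT pools, a difference of 0.17. Sln stood at 10.18, 9.91 and 9.72 in male KO pools, against 9.72, 9.83 and 9.99 in male WT pools, a difference of 0.09. In all 3 genes the groups overlapped, pool 4 was the highest of the 6 male pools, and no setting tried brought the genes past the threshold. Without pool 4 the differences were 0.02 for Myl7, 0.11 for Myl4 and -0.03 for Sln.

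Dkk3, Kcnj3, Bmp10 and Gja5 differed by between -0.05 and 0.07 in males, and their groups overlapped. Dkk3 averaged 6.99 ± 0.25 in male KO pools and 6.91 ± 0.04 in male WT pools. Kcnj3 averaged 6.07 ± 0.14 in male KO pools and 6.04 ± 0.08 in male WT pools (SD, n = 3 each). Without pool 4 the 4 differences lay between -0.09, for Gja5, and 0.05, for Bmp10, and that of Dkk3 was -0.04.

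Whether the KO effect differed between the sexes was tested directly, as the difference in females minus that in males. Of the 9 genes 0 passed, and of all genes 0%, while 4 of the 9 and 820 of all genes had an unadjusted p under 0.05. Myl7 gave -0.75 (SE 0.16, limma adjusted p = 0.755) and ranked number 4 of all genes by p. Sln gave -0.79 (SE 0.18) and Myl4 gave -0.66 (SE 0.16), with an adjusted p of 0.839 for both, and ranked number 12 and 16. Dkk3 gave -0.53, Nppb -0.33 and Nppa -0.24. A difference between the sexes in the KO effect on these genes was thus not shown by the test.

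Between the sexes of WT mice, 0 of the 9 genes were called, where 0.0275% of all genes were, and all 9 overlapped. The largest difference, female minus male, was 0.18, for Nppb, followed by 0.17 for Myl7, and the intervals of both included 0. The WT groups are those of the KO comparisons above, so these values share their samples.

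How far the genes moved together was measured over the 12 heart pools, as deviations from the mean of each group, with Myl7 as the common axis. Because group means were removed, this does not use the KO differences above. Pearson's r to Myl7 was 0.93 for Myl4 and 0.87 for Sln, and both passed an exact permutation test within groups (1296 permutations, p = 0.00926 and 0.00386, adjusted over 8 genes p = 0.037 and 0.0309). Of 17 alternatives, 12 lost this call for Myl4 and 10 lost it for Sln. Over the same alternatives r ran from 0.86 to 0.97 for Myl4 and from 0.66 to 0.97 for Sln. Spearman's rho was 0.78 for Myl4 and 0.75 for Sln, and no rho passed after adjustment (exact permutation, lowest adjusted p = 0.0803).

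Nppa had an r of 0.84 and a rho of 0.84 to Myl7, which missed the threshold after adjustment (exact permutation, p = 0.0201, adjusted p = 0.0535). Dkk3 had an r of 0.58 and a rho of 0.58 (exact permutation, adjusted p = 0.256). For Nppb r was 0.31, for Gja5 0.22, for Kcnj3 0.18 and for Bmp10 0.14, with an adjusted p of 0.682 each in the exact permutation test. With 1 pool left out in turn, r of Nppb lay between 0.0043 and 0.65, the highest without pool 4, that of Gja5 between -0.01 and 0.52, that of Kcnj3 between -0.0029 and 0.42 and that of Dkk3 between 0.36 and 0.73. Over all 36 pairs of the 9 genes r ran from -0.88 to 0.93, with a median of 0.21, and 9 pairs had an r over 0.5. Of those 9, Nppa with Gja5, at 0.52, was the one pair that held a gene outside Nppa, Myl4, Myl7, Sln and Dkk3, and the lowest value was that of Kcnj3 with Gja5.

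The pools behind this relation can be named. Within the female KO group pool 10 was 0.21 above the group mean in Myl7, 0.22 in Myl4, 0.24 in Sln and 0.19 in Nppa, while pool 12 was at -0.21 in Myl7, -0.20 in Myl4, -0.12 in Sln and -0.19 in Nppa. These were the 2 pools farthest from the median of Myl7. Without them r to Myl7 was 0.87 for Myl4 (exact permutation, p = 0.0556), 0.90 for Sln (p = 0.00926), 0.66 for Nppa (p = 0.12) and 0.65 for Dkk3 (p = 0.0509). For Nppb it was then -0.05. Without pools 4 and 10, which stood apart from their labels, r was 0.86 for Myl4, 0.70 for Sln, 0.63 for Nppa, 0.56 for Kcnj3, 0.43 for Nppb, 0.38 for Bmp10, 0.05 for Dkk3 and -0.15 for Gja5, and 0 genes passed after adjustment. The order of the genes after Myl4 and Sln thus depended on these pools, and the r of Dkk3 rested on them. All genes of a pool share 1 RNA preparation and 1 array, so that these correlations also carry whatever differed between preparations, which was not tested.

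**Figure D3:**
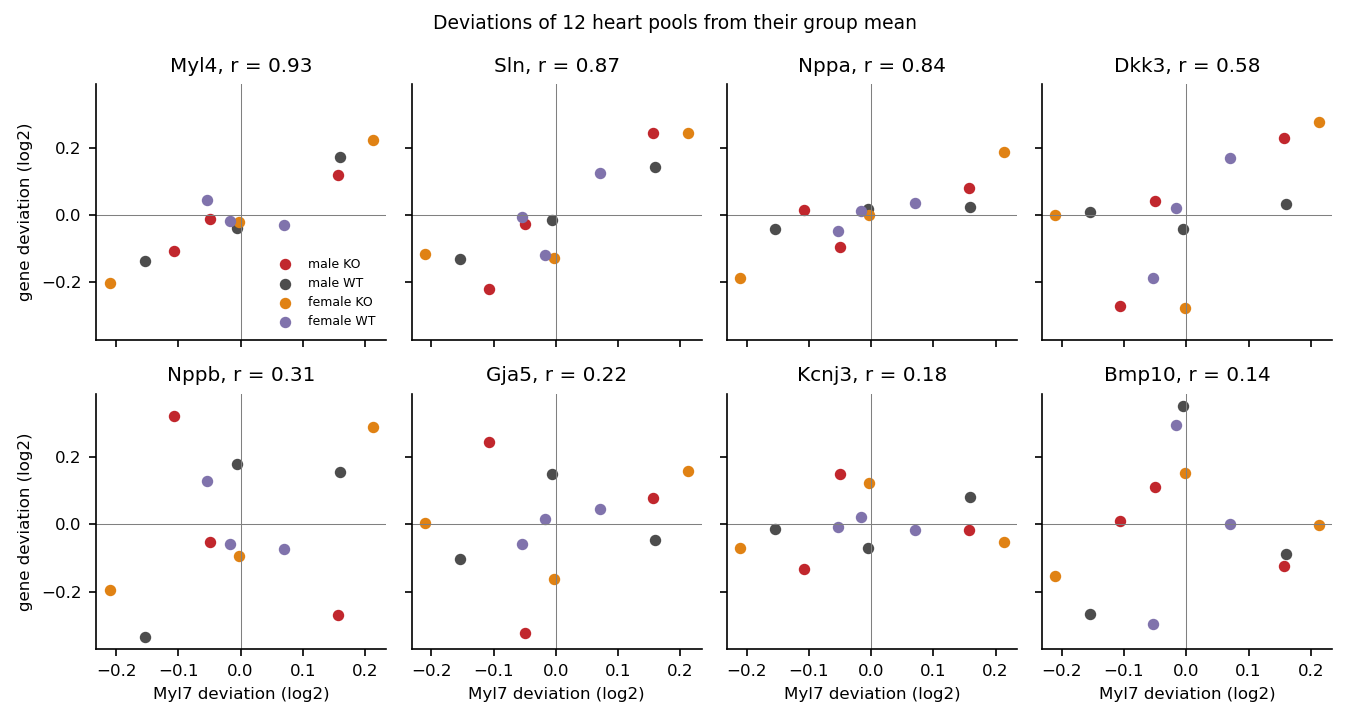
Deviation of each gene from its group mean (y axis, log2) against that of Myl7 (x axis, log2) in the 12 heart pools, coloured by group, with Pearson's r above each panel. The points of Myl4, Sln and Nppa lie along a rising line (r = 0.93, 0.87 and 0.84), while the points of Nppb, Gja5, Kcnj3 and Bmp10 scatter (r = 0.31, 0.22, 0.18 and 0.14).

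Set against Myl7 within each array, each gene's log2 ratio in females carries the fall of Myl7, so a gene with no difference of its own stands about as much higher. Myl2, which differed by 0.04, had a ratio 0.69 higher in female KO than in female WT hearts. The ratio was added after the data were seen, and with 3 pools against 3 an exact permutation test cannot go below p = 0.1, so the values are a description. The difference in the ratio was 0.64 for Nppa, 0.16 for Myl4, -0.05 for Sln and 0.19 for Dkk3, and the female KO and WT pools overlapped for Sln and Dkk3 (exact permutation, p = 0.5 and 0.3). For Nppb it was 0.83, for Kcnj3 0.61, for Gja5 0.61 and for Bmp10 0.56. In these genes, and in Nppa and Myl4, the ratio of every female KO pool lay above that of every female WT pool. Without pool 10 the ratio of Sln differed by -0.07 and that of Nppa by 0.65. In male hearts the ratio of Nppa differed by 0.13 with overlapping pools (exact permutation, p = 0.4).

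Promoters are shown for Myl7, which fell in females, for Myl4, which moved with it, and for Nppa, which holds matches of motifs of heart transcription factors. The rule fixed beforehand asked for genes that passed the test or moved together. Nppa did not meet it and was shown for its matches, so these are a description. RefSeq's promoter table (mouse build GRCm38.p6) held 7 of the 9 genes, all but Sln and Dkk3, and the 250 bases before the start are printed 5′ to 3′ on the gene's strand. Capitals mark motif matches, read on both strands. The Myl7 promoter lies at chr11:5898783-5899032 on the minus strand, that of Myl4 at chr11:104550413-104550662 on the plus strand and that of Nppa at chr4:148000472-148000721 on the plus strand.

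Myl7: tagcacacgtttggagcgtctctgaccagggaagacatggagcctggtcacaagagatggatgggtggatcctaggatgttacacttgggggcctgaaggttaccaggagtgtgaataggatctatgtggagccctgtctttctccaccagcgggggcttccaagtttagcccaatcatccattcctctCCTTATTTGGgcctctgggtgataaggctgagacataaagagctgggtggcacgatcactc
Myl4: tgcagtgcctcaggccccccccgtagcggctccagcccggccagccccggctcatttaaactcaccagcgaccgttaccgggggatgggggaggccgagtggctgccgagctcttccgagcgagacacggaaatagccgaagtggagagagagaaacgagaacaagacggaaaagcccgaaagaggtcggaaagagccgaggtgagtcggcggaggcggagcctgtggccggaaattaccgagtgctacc
Nppa: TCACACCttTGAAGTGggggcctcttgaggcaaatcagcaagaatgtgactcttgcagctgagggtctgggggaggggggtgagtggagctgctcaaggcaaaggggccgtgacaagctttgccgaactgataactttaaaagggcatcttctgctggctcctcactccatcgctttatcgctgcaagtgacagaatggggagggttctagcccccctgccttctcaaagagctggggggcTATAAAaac

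Myl7 holds 1 match of the CArG box, the motif of serum response factor, whose first base is 61 bases before the start; 1.47% of the 32851 promoters of that length in the table hold one. Nppa holds the T-box motif (GGTGTGA, here read on the other strand) at 250 bases, the NKX2-5 motif (TNAAGTG) at 241 bases and a TATA box (TATAAA) at 9 bases before the start, which 3.33%, 10.1% and 12.4% of promoters hold. None of the 7 motifs searched lies in this window of Myl4. The GATA motif, searched as AGATAA alone (in 9.99% of promoters), lies in Nppb at 84 bases before the start, with a TATA box at 31 bases. It also lies in Bmp10, at 219 and 33 bases before the start. The form TGATAA, which the printed Myl7 and Nppa windows hold in small letters, was not searched. The direct repeat bound by PPAR and RXR, which 0.0335% of promoters hold, is in none of the 7 promoters. The CArG and MEF2 motifs were added to the search after the Myl7 sequence had been read, so these matches are a description. Nppa and Nppb are neighbours, with starts 14.8 kb apart on chromosome 4 on the same strand, and their r over the 12 heart pools was 0.42.

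The genes around these 9 were read from lists of other atrial and nodal, ventricular, natriuretic peptide signalling and cardiac stress genes. Of 12 other atrial and nodal genes measured, 0 were called in either KO comparison, and their median differences were 0.02 in females and -0.01 in males. Tbx5, a transcription factor of atrial and septal development, stood at 5.77, 5.99 and 6.06 in female KO pools, against 6.28, 6.55 and 6.36 in female WT pools. The groups did not overlap, and the difference of -0.46 missed the threshold (limma, adjusted p = 0.187). Pam, the amidating enzyme that is abundant in atrial secretory granules, differed by -0.24 in females (adjusted p = 0.454), with every KO pool below every WT pool. Kcnk3, a potassium channel of atrial muscle, went the other way, with every KO pool above every WT pool in females (difference 0.19, adjusted p = 0.622) and in males (0.14, adjusted p = 0.824).

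Mybphl, a myosin-binding protein of atrial and conduction system muscle that had been placed in the list of stress genes, fell in females. It stood at 7.07, 6.59 and 6.79 in female KO pools, against 7.54, 7.56 and 7.44 in female WT pools, and fell by 0.70 (SE 0.14, limma adjusted p = 0.0349). The groups did not overlap. In males it stood at 7.96, 7.74 and 7.46 in KO pools, against 7.41, 7.47 and 7.78 in WT pools, which overlap (difference 0.17). Without pool 4 the difference of Mybphl in males was 0.05. Without pool 10 that of Mybphl in females was -0.82 (limma, adjusted p = 0.0163). Its log2 ratio to Myl7 differed by -0.04 between female KO and WT (exact permutation, p = 0.9). The call was lost when female pool 7, 8, 9, 11 or 12 was left out, with adjusted p between 0.0782 and 0.177, and with array weights (adjusted p = 0.0616).

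Of the 12 genes that process natriuretic peptides or carry their signal, 0 were called in either sex. Corin, the protease that cuts the precursor of atrial natriuretic peptide, differed by -0.19 in females and -0.12 in males, with no overlap in either sex (limma, adjusted p = 0.588 and 0.881). Npr3, the clearance receptor, differed by -0.05 in females and -0.25 in males (adjusted p = 0.977 and 0.669). Npr1, the receptor of both peptides, differed by -0.18 in females and 0.04 in males, and its groups overlapped.

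Of the 8 stress and growth genes measured, Mybphl was the one called in females and Fhl1 the one called in males. Fhl1, a LIM-domain protein of heart muscle, fell by 0.50 in males (limma, adjusted p = 0.0372) and differed by -0.46 in females (adjusted p = 0.0594). Acta1, skeletal alpha-actin, which the stressed ventricle is known to make again, stood at 8.79, 8.78 and 8.29 in male KO pools, against 10.05, 10.12 and 8.88 in male WT pools (adjusted p = 0.202). In females it stood at 8.19, 8.57 and 7.91 in KO pools, against 8.68, 9.39 and 8.77 in WT pools (adjusted p = 0.588). Its groups did not overlap in either sex.

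Ventricular genes showed 1 call among 8. Irx3, a transcription factor of the ventricular conduction system, fell by 0.83 in males (limma, adjusted p = 0.0228) and differed by -0.36 in females (adjusted p = 0.653). Myh7, the slow myosin heavy chain, stood at 7.41, 7.35 and 7.21 in male KO pools, against 6.88, 6.53 and 7.12 in male WT pools (difference 0.48, adjusted p = 0.157), and its female groups overlapped (difference -0.10). Myl2, the ventricular regulatory light chain, differed by 0.04 in females and -0.05 in males.

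Marker lists of other tissues were read in the same pools. The 10 heart muscle markers had a mean level between 11.66 and 11.67 in female KO pools and between 11.57 and 11.59 in female WT pools, with 0 of 10 called, while the 5 smooth muscle markers lay between 6.31 and 6.54 in female KO pools and between 6.65 and 6.81 in female WT pools. Of the smooth muscle markers 0 of 5 were called. Tagln, an actin-binding protein of smooth muscle, stood at 6.25, 6.02 and 5.91 in female KO pools, against 6.66, 6.53 and 6.57 in female WT pools (difference -0.53, limma adjusted p = 0.0695). Cnn1 and Acta2 also had every female KO pool below every WT pool, Myh11 overlapped at -0.35, and Smtn overlapped at 0.09. The part of smooth muscle in the female results was not tested.

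The 6 adipocyte markers lay between 5.10 and 5.62 in female KO pools and between 5.68 and 5.83 in female WT pools, and their defining marker Adipoq ran from 4.55 to 6.998 in female KO pools and from 7.31 to 7.99 in female WT pools. Of this list Fabp4 was called, and it rose in females by 0.48 (limma, adjusted p = 0.0417), against the direction of Adipoq. The 5 epicardial and mesothelial markers lay between 3.49 and 4.10 in female KO pools and between 3.86 and 4.18 in female WT pools. The 6 thymus and lymphocyte markers lay between 3.18 and 3.86 in female KO pools and between 3.62 and 4.12 in female WT pools. In male KO pool 6 the mean of this list was 4.63, against 3.32 to 3.50 in male WT pools. Rag1 stood at 5.94 in pool 6 and between 2.16 and 2.62 in the other heart pools. The 3 red blood cell markers lay between 4.81 and 5.04 in female KO pools and between 5.13 and 5.37 in female WT pools, with no overlap. Of them Alas2, an enzyme of haem synthesis in red cell precursors, differed by -0.77 (limma, adjusted p = 0.483). Slc4a1 differed by -0.14 and Hba-a1, at a mean of 2.59 and so below the array median, by -0.03. Both of these overlapped between the female groups. The 6 fibroblast markers lay between 7.84 and 7.91 in female KO pools and between 7.49 and 7.91 in female WT pools. In females 4 of them had a positive and 2 a negative difference, and 0 were called. Col3a1 differed by 0.56 (limma, adjusted p = 0.386), with every female KO pool above every WT pool. The endothelial, cardiac nerve and lung lists overlapped between the female groups, with 0 genes called. The part of these tissues in the results of either sex was not tested.

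In males the 17 skeletal muscle markers lay between 3.82 and 4.69 in KO pools and between 3.55 and 3.58 in WT pools. In females they lay between 3.63 and 3.75 in KO pools and between 3.52 and 3.56 in WT pools, also without overlap. Sln fell there. Of the 17 genes in females, 11 had a positive and 6 a negative difference, with a median of 0.05, and 2 were called. Casq1, the skeletal calsequestrin, rose by 1.58 in males and by 1.51 in females (limma, adjusted p = 0.000179 and 0.000237). Tnnt1 and Myl1 also passed in males, and Mybpc2 in females (difference 0.55, limma adjusted p = 0.0256). Tnnc2, which defines fast skeletal muscle, stood at 5.90 in pool 4 and between 2.61 and 2.72 in the other male pools, below the array median. Sln is also made in skeletal muscle, and the share of it that came from such tissue in pool 4 was not tested.

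**Figure D4:**
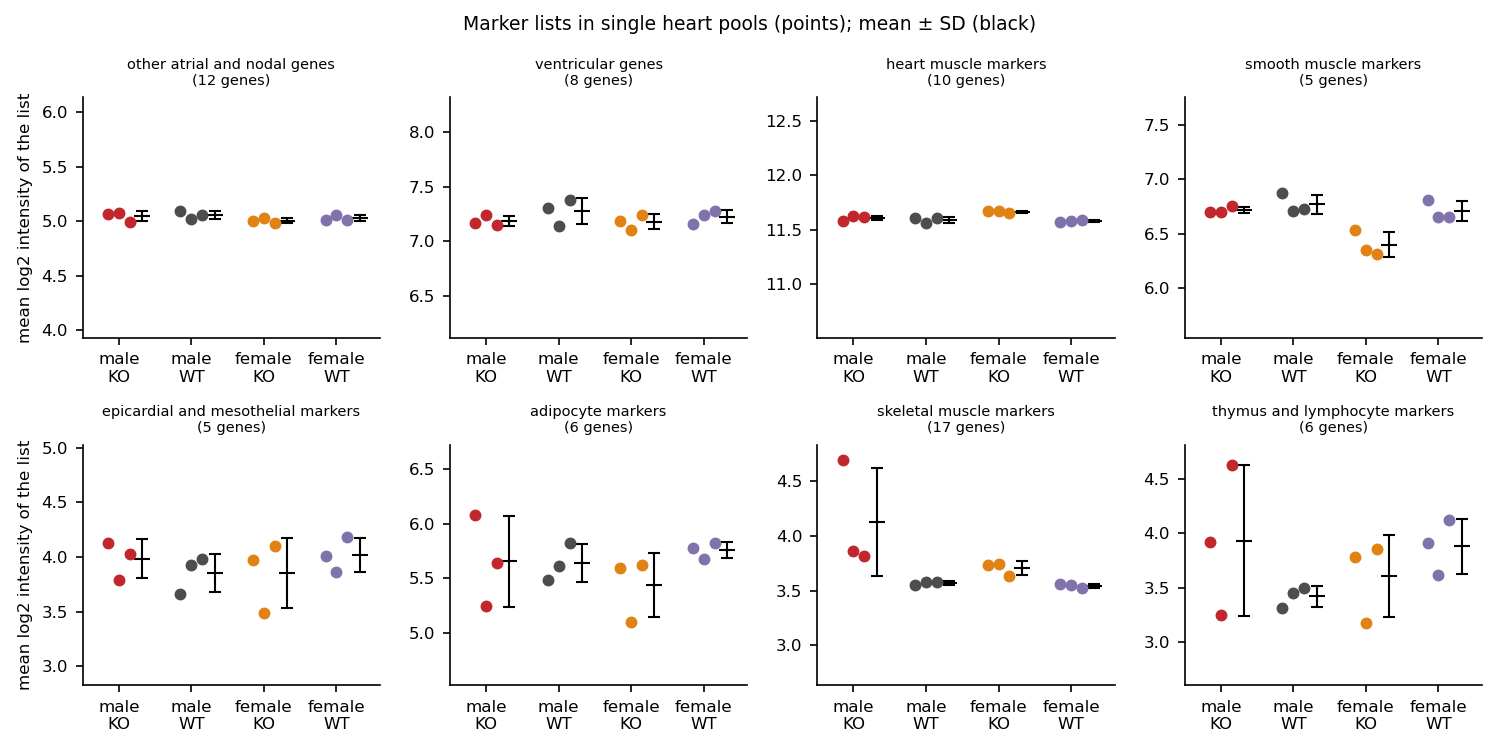
Mean log2 intensity of 8 marker lists (y axis, the number of measured genes above each panel) in the single heart pools (points) of male KO, male WT, female KO and female WT mice, with the group mean ± SD in black (n = 3 pools). The smooth muscle list lies at 6.31 to 6.54 in female KO pools, below the 6.65 to 6.81 of female WT pools, and skeletal muscle markers stand at 4.69 in male KO pool 4.

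The genes outside the 9 that followed Myl7 most closely were listed by Pearson's r of deviations from group means over the 12 heart pools, among 9088 genes with a mean heart level above the median of all genes. They were Pld1 (0.93), Tmem108 (0.91), Hacd2 (0.91), Homer1 (0.91), Grhpr (0.89), Fam219aos (0.89), Timp4 (0.88), Trib1 (0.85), Ltc4s (0.85) and Akr1b8 (0.85). Myl4, at 0.93, would rank beside the first of them and Sln, at 0.87, among them. Of these 10 genes, Pld1, a phospholipase, and Hacd2, an enzyme of fatty acid elongation, differed by -0.47 and -0.50 between female KO and WT hearts, and the other 8 by between -0.14 and 0.27. With so many genes searched over 12 pools, values of this size are a description.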

How the data were processed

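RNA from pools of 4 animals was measured on 24 Affymetrix arrays, 12 of them of heart. The deposited values are log2 intensities that the authors made with RMA, per the submitters' processing notes; the version, its settings and the genome build are not given in the sources used here. Precision is limited by the number of arrays.

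Of 45101 probe sets, 64 were controls, 932 named several genes and 9160 none; these were left out. The other 34945 gave 18193 genes, each shown by its brightest probe set (mean of all 24 arrays), and no filter on dim genes was applied. The 12 heart arrays were fitted together in limma 3.58.1 (R 4.3.3; lmFit and eBayes, a mean per group, two-sided, adjusted over all genes by Benjamini-Hochberg with a threshold of 0.05) for 4 comparisons. Correlations and exact permutation tests were run in Python 3.11.15 with numpy 2.4.6 and pandas 2.3.3. The limma fit and the permutation test within groups were tested on simulated data. The genes and lists were chosen with earlier results of these data known. Of the other lists, the up to 4 genes with the lowest unadjusted p in either KO comparison could be named; Myl2, Npr1, Tnnc2 and Scgb1a1 were named after their values were seen. Alternatives were other sets of arrays, variance models, array weights, normalizations, filters and choices of probe set, and leaving out pools.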

Additional observations from a re-analysis of the deposited data

How the results depend on the processing

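Of 1033 alternative values of 65 results, 921 kept their direction and their side of the threshold, or a count within 1.5 times. Ratios to Myl7 were counted as kept when they shifted by less than the SD within groups. In 43 of the 1033 the sign changed, none of them in a value that had passed its test. Most single-gene results had not passed a test in the main setting. Of those that had, Myl7 in females kept its call in 14 of 17 alternatives, Sln in 13 and Mybphl in 11. The r to Myl7 kept its call in 7 of 17 for Sln and in 5 of 17 for Myl4. No paired analysis was possible because KO and WT groups, and the sexes, carry different pool numbers. The number of genes called between female KO and WT hearts was 97, and 59 without heart pools 4 and 10; with 1 pool left out in turn it lay between 61 and 82. Of the 9 atrial and natriuretic peptide genes, the number called in females lay between 0 and 3 with 1 pool left out, with 0 calls where pool 7, 11 or 12 was left out, 1 where pool 8 was and 3 where pool 10 was; the alternatives leave fewer samples. Between the sexes of WT mice 5 genes were called, 13 in a fit of all 24 arrays, 3 with the mean of all probe sets, and between 0 and 1 with 1 pool left out. The number of genes whose r to Myl7 passed was 2, and 0 with the mean of all probe sets, without pools 4 and 10, and without the 2 pools farthest from the median of Myl7; with 1 pool left out it lay between 0 and 3, while r stayed between 0.89 and 0.97 for Myl4 and between 0.81 and 0.92 for Sln, with fewer permutations to draw on. A limma fit of the ratios to Myl7 over all genes was also run and is not used, because the shared Myl7 values gave every gene the same error. Gja5 and the second Sln probe set lie below the array median, which limits what their values show.

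The values that changed sign were all small. Without pools 4 and 10 the KO difference in males was -0.033 for Sln, 0.0459 for Bmp10 and -0.0416 for Dkk3. With array weights it was 0.0115 for Bmp10 in males and 0.0227 for Nppa in females. With the mean of all probe sets it was -0.0116 in males and 0.0056 in females for Kcnj3, and the female effect minus the male one was 0.0171. That contrast for Gja5 was -0.0007 with arrays centred on their medians and -0.0394 without pools 4 and 10. The r to Myl7 was -0.0185 for Nppb with group means kept and -0.0504 without the 2 farthest pools, and -0.15 for Gja5 without pools 4 and 10.

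With 1 pool left out in turn, the KO difference in males ranged from -0.033 to 0.199 for Sln, from -0.15 to 0.16 for Bmp10, from -0.0457 to 0.0965 for Kcnj3, from -0.17 to 0.11 for Gja5 and from -0.0416 to 0.21 for Dkk3. In females it ranged from -0.11 to 0.0774 for Nppa, from -0.24 to 0.055 for Bmp10 and from -0.125 to 0.0359 for Gja5. The female effect minus the male one ranged from -0.25 to 0.0704 for Bmp10, from -0.14 to 0.003 for Kcnj3 and from -0.16 to 0.12 for Gja5. Female minus male WT ranged from -0.0149 to 0.14 for Myl4, from -0.26 to 0.068 for Bmp10, from -0.0695 to 0.0562 for Gja5 and from -0.11 to 0.0721 for Mybphl. The r to Myl7 ranged from -0.0866 to 0.28 for Bmp10, from -0.0029 to 0.42 for Kcnj3 and from -0.0125 to 0.52 for Gja5. The cause was not tested.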
